A study of Mus musculus with 18 samples.

Results

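Antigen presentation by the major histocompatibility complex (MHC) was followed through 10 transcripts, H2-Aa, H2-Ab1, H2-Eb1, Cd74, Ciita, H2-K1, H2-D1, B2m, Tap1 and Psmb8. They were taken by symbol from tables of 51435 genes, and all 10 were among the 24804 genes that had more than 1 count over all mice and were tested for genotype. Left ventricles of 18 C57BL/6J mice, 9 WT and 9 WWP2Mut/Mut, were profiled by bulk RNA sequencing. WWP2Mut/Mut mice lack 4 bp of the second exon of Wwp2 after CRISPR/Cas9 editing, and WT mice came from the same crosses. Wwp2 encodes an E3 ubiquitin ligase, and the deletion was designed against its full-length and N-terminal isoforms but not its C-terminal isoform. All 18 mice, WT included, had received Angiotensin II (AngII), a peptide that raises blood pressure and drives cardiac fibrosis, at 500 ng/kg/min for 28 days by an implanted pump from 8 weeks of age, so that no value below compares AngII with its absence. Which transcripts of antigen presentation are present in this tissue, how they vary between mice and whether they differ by genotype was asked in turn.

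Class I molecules are found on nearly all nucleated cells and pair a heavy chain, here H2-K1 or H2-D1, with the light chain B2m. Their peptides are cut by the proteasome, in which Psmb8 replaces the standard subunit Psmb5 when cells meet interferon, and are pumped into the endoplasmic reticulum by a transporter of which Tap1 is one chain. Class II molecules, by contrast, are made chiefly by macrophages, dendritic cells and B cells. Their alpha and beta chains, such as H2-Aa with H2-Ab1, assemble on the invariant chain Cd74, and their transcription depends on the coactivator Ciita. The C57BL/6 strain lacks a working H2-Ea gene, so that the beta chain H2-Eb1 is transcribed without its partner, and the pseudogene H2-Ea-ps was at 0 counts in all 18 mice here.

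On GRCm38, 7 of the 10 genes lie within 1.27 Mb of chromosome 17, from H2-K1 (chr17:33996017-34000347, minus strand) through Tap1 (chr17:34187553-34197225, plus), Psmb8 (chr17:34197721-34201454, plus), H2-Ab1 (chr17:34257689-34269419, plus), H2-Aa (chr17:34282744-34287823, minus) and H2-Eb1 (chr17:34305867-34316674, plus) to H2-D1 (chr17:35262730-35267499, plus). B2m (chr2:122147686-122153083, plus), Ciita (chr16:10480059-10528418, plus) and Cd74 lie on other chromosomes. All 10 are protein-coding.

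Class I and class II promoters are known to share a module in which an X box, with a cyclic AMP response element-like part, is followed by a Y box bound by NF-Y. The RefSeq promoter table (GRCm38.p6, 250 bases before to 50 after a start site) held windows for 7 of the 10 genes, H2-K1, H2-D1, B2m, Tap1, Psmb8, H2-Aa and H2-Eb1, and the 5 sequences in which this module was read are shown because the same genes varied together between mice. They run 5′ to 3′ on the gene's own strand, as the 200 bases before the start site, except for H2-D1. For H2-D1 only 30 bases are shown, from its TGACG to the end of its ATTGG, so that the start of its X box core is cut off. Capitals mark matches, on either strand, to TGACG (response element-like core), ATTGG (Y box core), ACNGATG (X box core), GGGATTCCC (the kappaB site of the class I enhancer) and TTTCNNTTC (interferon-stimulated response element core), and where matches touch or overlap they form a single run of capitals.
H2-K1, chr17:34000348-34000547, minus: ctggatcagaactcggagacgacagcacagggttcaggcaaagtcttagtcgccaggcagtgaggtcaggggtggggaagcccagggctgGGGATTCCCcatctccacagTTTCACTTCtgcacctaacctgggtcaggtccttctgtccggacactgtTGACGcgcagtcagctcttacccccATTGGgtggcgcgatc
H2-D1, chr17:35262993-35263022, plus: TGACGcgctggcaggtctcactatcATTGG
B2m, chr2:122147487-122147686, plus: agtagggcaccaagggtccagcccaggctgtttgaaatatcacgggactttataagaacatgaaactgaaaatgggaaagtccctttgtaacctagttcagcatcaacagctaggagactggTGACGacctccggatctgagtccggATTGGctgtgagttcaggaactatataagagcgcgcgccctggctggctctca
H2-Aa, chr17:34287824-34288023, minus: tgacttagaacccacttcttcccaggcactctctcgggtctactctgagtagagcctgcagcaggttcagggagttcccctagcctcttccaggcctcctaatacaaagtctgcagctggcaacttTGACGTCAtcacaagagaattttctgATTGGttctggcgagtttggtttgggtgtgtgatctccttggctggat
H2-Eb1, chr17:34305667-34305866, plus: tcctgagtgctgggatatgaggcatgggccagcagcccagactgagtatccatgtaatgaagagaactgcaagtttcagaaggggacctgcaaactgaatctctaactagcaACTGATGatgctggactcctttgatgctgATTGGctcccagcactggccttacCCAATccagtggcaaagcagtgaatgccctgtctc

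In H2-K1, H2-D1 and B2m the start of ATTGG lay 25 bases after the start of TGACG, and in H2-Aa 26 bases after it. A pair of this order and strand with a spacing of 20 to 30 bases, a rule written after these sequences were seen, was present in 143 of all 32851 windows (0.435%). H2-Eb1 held the X box core 29 bases before its Y box core, and H2-D1 held both arrangements, with the X box core 30 bases before. An X box core followed 10 to 35 bases on by a Y box core was present in 67 windows (0.204%). GGGATTCCC, followed 20 bases on by TTTCNNTTC, was found in the H2-K1 and H2-D1 windows, which shared an identical run of 47 bases, and GGGATTCCC was present in 0.353% of all windows. Taken singly the cores were common, since ATTGG was in 37.4% of windows, TGACG in 20.8%, ACNGATG in 9.85% and TTTCNNTTC in 7.52%. In the Tap1 window TGACG and ATTGG were both present without this spacing, and in the Psmb8 window the only match was ACNGATG after the start site.

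The libraries held between 24566994 and 37451087 counts, and the difference between genotypes was within the spread between mice (two-sided exact permutation test, p = 0.456). Wwp2 was at 3.83 to 6.01 TPM in WT and 1.19 to 3.00 TPM in WWP2Mut/Mut mice, without overlap. Liver transcripts stood apart, with a summed level of 7 liver markers of 1.56 to 289 TPM (median 64.1) in WT and 2.87 to 52.8 TPM (median 17.6) in WWP2Mut/Mut mice, and WT mouse 45-1 was over 5 times the median of the 18. The atrial markers without Nppa, which the pressure-loaded ventricle also expresses, exceeded 5 times their median in 5 libraries, 3 WT and 2 WWP2Mut/Mut, whereas the sum with Nppa did so in none. RNA concentration, a covariate of the study's own fit, averaged 110 ± 51.5 ng/µl (SD, n = 9) in WT and 175 ± 73.6 ng/µl (SD, n = 9) in WWP2Mut/Mut mice (two-sided exact permutation test, p = 0.0422), with 1.68 ng/µl recorded for WT mouse 43-3. The tissue was ventricular, with Myl2 at 15460 to 25644 TPM, and the 6 ventricular cardiomyocyte markers summed to a mean of 46286 TPM in WT and 42623 TPM in WWP2Mut/Mut mice (two-sided exact permutation test, p = 0.0411).

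Of the cells that make class II molecules, macrophages were the best represented. The 8 macrophage markers summed to 222 to 397 TPM in WT and 212 to 347 TPM in WWP2Mut/Mut mice, and 7 of them had medians of at least 1 TPM, C1qa, C1qb and Lyz2 foremost. The 7 dendritic cell markers summed to 2.80 to 4.81 TPM in WT and 2.37 to 4.57 TPM in WWP2Mut/Mut mice, most of it Zbtb46, which endothelial cells also express, while Flt3, Xcr1 and Clec9a stayed at or below 0.21 TPM in every mouse. The 5 B cell markers summed to 1.45 to 5.51 TPM in WT and 1.43 to 7.98 TPM in WWP2Mut/Mut mice, highest in WWP2Mut/Mut mouse 52-1. The 6 T cell markers summed to 0.51 to 1.27 TPM over all mice. No difference between genotypes in these sums passed the test (two-sided exact permutation tests, p = 0.368, 0.500, 0.648 and 0.922 for macrophages, dendritic cells, B cells and T cells). In bulk tissue, fewer cells of a type and less RNA per cell cannot be told apart.

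Compared per transcript length, as TPM, the light chain stood highest. B2m averaged 296 ± 58.1 TPM (SD, n = 18), followed by H2-D1 at 127 ± 22.3, H2-K1 at 112 ± 25.1 and Cd74 at 110 ± 25.6 TPM. The class II chains came next, H2-Aa at 57.0 ± 13.98, H2-Ab1 at 46.7 ± 11.8 and H2-Eb1 at 44.7 ± 11.1 TPM. Psmb8 averaged 14.7 ± 2.64 and Tap1 4.71 ± 1.24 TPM, and Ciita was lowest at 0.186 ± 0.0801 TPM. Within mice this order was close to fixed. B2m exceeded H2-D1, Cd74 exceeded H2-Aa, and H2-Aa exceeded H2-Ab1 in 18 of 18 mice each, and H2-D1 exceeded H2-K1 in 17 of 18. H2-K1 exceeded Cd74 in 9 of 18 mice and H2-Ab1 exceeded H2-Eb1 in 12 of 18. The order of these 2 neighbouring pairs thus varied between mice, and their differences were not tested.

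**Figure D1:**
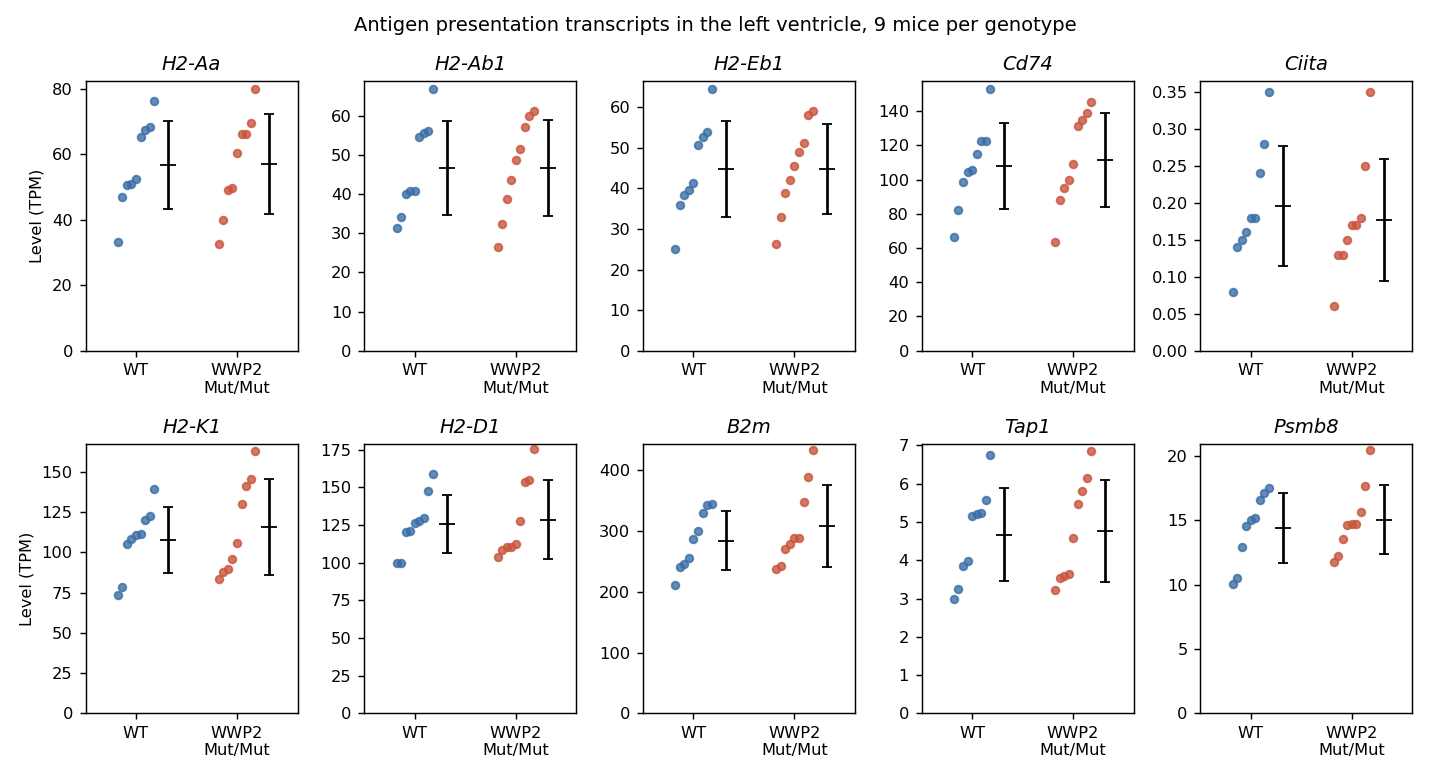
Level of each of the 10 transcripts in TPM (vertical axis, from 0, a separate scale per gene) in 9 WT and 9 WWP2Mut/Mut mice. Points are mice in ascending order and black bars are the mean ± SD, and for every gene the ranges of the genotypes overlap, as for B2m at 211 to 344 TPM in WT and 237 to 432 TPM in WWP2Mut/Mut mice.

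The class II chains had nearly the same levels in both genotypes. H2-Aa, the alpha chain of I-A, was between 33.1 and 76.5 TPM (median 52.4) in WT and between 32.5 and 80.1 TPM (median 60.5) in WWP2Mut/Mut mice. H2-Ab1, its beta chain, was between 31.3 and 66.9 TPM (median 40.9) in WT and between 26.5 and 61.4 TPM (median 48.9) in WWP2Mut/Mut mice. Each genotype thus spanned most of the range of the other, with 5 and 6 of 9 WWP2Mut/Mut mice above the WT median. H2-Eb1, the unpaired beta chain, was between 25.03 and 64.5 TPM (median 41.2) in WT and between 26.3 and 59.0 TPM (median 45.4) in WWP2Mut/Mut mice. Cd74 was between 66.5 and 153 TPM (median 106) in WT and between 63.6 and 145 TPM (median 109) in WWP2Mut/Mut mice. For all 4 transcripts the highest or lowest mouse of one genotype lay close to that of the other, and the mean difference in log2(TPM + 1), WWP2Mut/Mut minus WT, was between -0.01 and 0.04 (two-sided exact permutation tests over 48620 divisions of the mice, p = 0.979 for H2-Aa, 0.953 for H2-Ab1, 0.962 for H2-Eb1 and 0.806 for Cd74).

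The class I chains ranged slightly higher in WWP2Mut/Mut mice, with overlap throughout. H2-K1 was between 73.8 and 139 TPM (median 111) in WT and between 83.2 and 163 TPM (median 106) in WWP2Mut/Mut mice. H2-D1 was between 99.6 and 159 TPM (median 126) in WT and between 104 and 175 TPM (median 113) in WWP2Mut/Mut mice. The WWP2Mut/Mut mice held the highest values but had the lower medians, with 4 of 9 above the WT median for each heavy chain. B2m was between 211 and 344 TPM (median 287) in WT and between 237 and 432 TPM (median 288) in WWP2Mut/Mut mice, and 3 WWP2Mut/Mut mice were above every WT mouse. The mean differences in log2(TPM + 1) were 0.09, 0.02 and 0.11 (two-sided exact permutation tests, p = 0.577, 0.836 and 0.413). The highest mouse for all 3 chains was WWP2Mut/Mut 54-1.

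Tap1 and Psmb8, which supply and carry peptides, were well below the chains they serve. Tap1 was between 2.99 and 6.75 TPM (median 5.15) in WT and between 3.22 and 6.85 TPM (median 4.57) in WWP2Mut/Mut mice. Psmb8 was between 10.1 and 17.5 TPM (median 15.0) in WT and between 11.8 and 20.5 TPM (median 14.7) in WWP2Mut/Mut mice. The genotypes overlapped almost fully for both, and the differences in log2(TPM + 1) were 0.02 and 0.06 (two-sided exact permutation tests, p = 0.901 and 0.597). Ciita, the class II coactivator, was between 0.08 and 0.35 TPM (median 0.18) in WT and between 0.06 and 0.35 TPM (median 0.17) in WWP2Mut/Mut mice, from 17 to 72 counts per library, and the difference was -0.02 (two-sided exact permutation test, p = 0.615). Ciita varied most between mice, 5.83-fold from the lowest to the highest, at counts too low for its differences to be precise.

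These TPM differences sat on a general shift. Over the 11336 genes with a mean of at least 1 TPM, the median difference in log2(TPM + 1) was -0.11, and 8.05% of these genes were higher in WWP2Mut/Mut mice. With TPM rescaled to one common sum the shift was -0.09 and 9 of the 10 transcripts were on the higher side, and on TMM-normalized CPM, where the shift was 0.00, all 10 were, by 0.01 to 0.25. H2-Aa and H2-Ab1 were below 0 on TPM but above 0 on both other scales, and Ciita was above 0 on TMM-normalized CPM alone.

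In the model over all genes, which used counts, TMM factors and the covariates RNA concentration and lane, all 10 transcripts were higher in WWP2Mut/Mut than in WT mice, and none was called. An FDR below 0.05 was reached by 1 of 24804 genes (0.00403%), Wwp2 itself (log2 fold change -1.40, adjusted p = 0.00113, edgeR quasi-likelihood test with Benjamini-Hochberg adjustment), and the adjusted p was 1 for each of the 10. An unadjusted p under 0.05 was reached by 3 of the 10, all higher in WWP2Mut/Mut mice, against 1.09% of all genes in that direction, and a log2 fold change above 0 by 10 of 10, against 48.1% of all genes. Because the 10 genes vary together between mice, these counts are not counts of independent genes. Their median log2 fold change was 0.35, beside -0.01 over all genes tested.

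The 3 were Cd74, H2-K1 and B2m. The log2 fold change of Cd74 was 0.40 (SE 0.18, 95% interval 0.03 to 0.78, unadjusted p = 0.0374 and adjusted p = 1, edgeR), that of H2-K1 0.40 (SE 0.18, unadjusted p = 0.0454 and adjusted p = 1, edgeR) and that of B2m 0.36 (SE 0.16, unadjusted p = 0.0376 and adjusted p = 1, edgeR). Psmb8 was at 0.40, H2-Eb1 at 0.37, H2-Ab1 at 0.35, H2-Aa at 0.31, H2-D1 at 0.27, Tap1 at 0.23 and Ciita at 0.14, with SE of 0.16 to 0.29 and unadjusted p of 0.0605 to 0.630 in that model. For H2-Aa the 95% interval of -0.07 to 0.70 includes 0, and that of Ciita was -0.47 to 0.76.

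The size of the difference moved with the covariates. Without covariates the 10 log2 fold changes were 0.03 to 0.27 and none had an unadjusted p under 0.05, the smallest being 0.0680 (edgeR), and with lane alone they were 0.07 to 0.26, again with none. Adding the summed level of the liver markers as a covariate gave 0.03 to 0.63, with 8 of 10 below 0.05, and leaving out WT mouse 45-1 gave 0.12 to 0.40, with none. Without the 5 libraries with high atrial markers they were 0.32 to 0.56, with 4 of 10 below 0.05, and Ciita was at 0.35 and Tap1 at 0.40. In limma on log2(TPM + 1), with the same covariates, they were -0.00 to 0.23, with none, and Ciita was the single gene below 0. The share of all genes that were higher in WWP2Mut/Mut mice with an unadjusted p under 0.05 also moved, to 1.72% without covariates, 0.955% with lane alone, 1.53% with gene body coverage added, 3.52% with liver markers, 1.26% without WT 45-1, 0.942% without the atrial libraries and 0.766% in limma. RNA concentration itself was higher in WWP2Mut/Mut mice and was negatively correlated with all 10 transcripts (Pearson r over 18 mice of -0.452 for H2-Aa to -0.102 for B2m, each with an adjusted permutation p of 0.225 or more). Without the 2 mice farthest from its median these were -0.240 (Psmb8) to 0.001 (Cd74), with H2-Aa at -0.119. The summed ventricular cardiomyocyte markers were lower in WWP2Mut/Mut mice, with a mean difference of -0.12 in log2 TPM, beside the shift of -0.11 over all genes on that scale. The part of either measure in the difference was not tested.

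**Figure D2:**
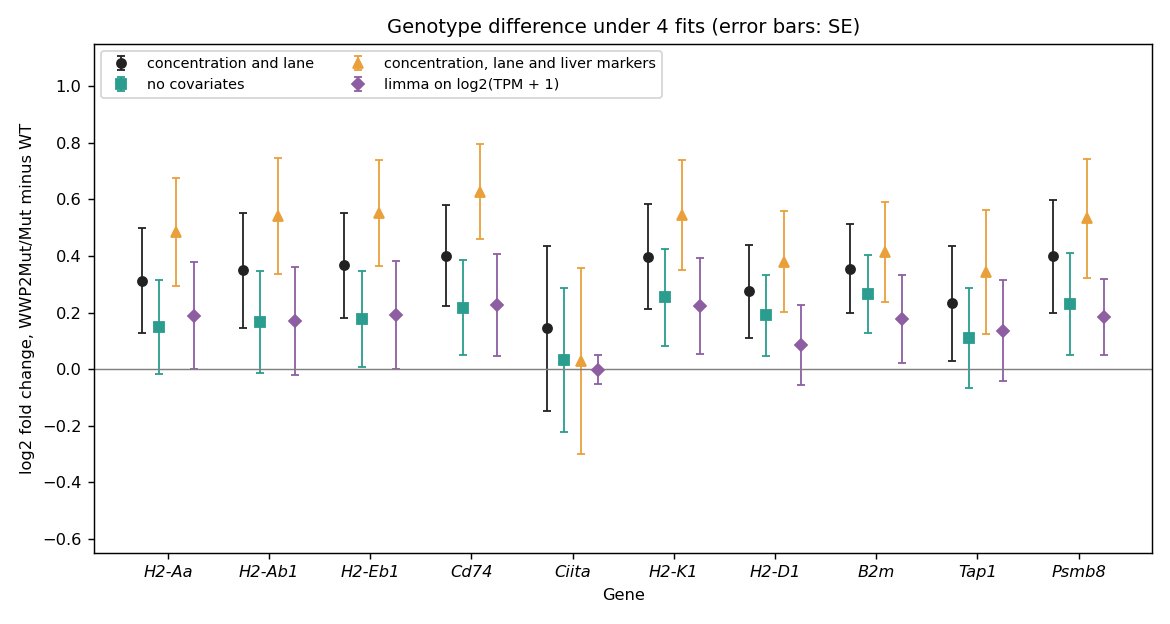
Log2 fold change (vertical axis, WWP2Mut/Mut minus WT, with SE) of the 10 transcripts in 4 models over 18 mice, with RNA concentration and lane as covariates (black), with none (green), with liver markers added (orange), and in limma on log2(TPM + 1) with concentration and lane (purple). Cd74 lies at 0.40, 0.22, 0.63 and 0.23 in this order.

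Single mice decided how many of the 10 passed an unadjusted p of 0.05. Leaving out each mouse in turn gave 0 to 8, where the share of all genes in that direction was 0.793% to 1.65%. None passed without WWP2Mut/Mut 24-3, WWP2Mut/Mut 54-1, WT 25-3, WT 39-1 or WT 45-1, whereas 8 passed without WWP2Mut/Mut 22-3 or WT 45-3, and 1 without WWP2Mut/Mut 52-1 or WT 16-1. The direction was kept by all 10 in each case but for Ciita, which was at -0.10 without WWP2Mut/Mut 24-3 and at -0.03 without WT 16-1. Among the others, Tap1 went from 0.23 to 0.06 without WWP2Mut/Mut 24-3 and to 0.13 without WT 25-3, and H2-D1 from 0.27 to 0.15 without WWP2Mut/Mut 24-3. Ciita was at 0.03 without WWP2Mut/Mut 33-1, 0.06 without WT 25-3, 0.29 without WT 45-3 and 0.35 without WWP2Mut/Mut 53-1, and no other of the 10 moved by over 1.5 times when a mouse was left out. Within lanes, which held 2 or 3 mice per genotype and were not tested singly, the differences in log2(TPM + 1) were not of one sign. In lane 1 they were above 0 for 9 of the 10, up to 0.63 for H2-Aa, and in lane 3 below 0 for all 10, down to -0.31 for B2m.

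The levels spread widely between mice. Over the 18 mice the highest mouse exceeded the lowest by 2.47-fold for H2-Aa, 2.53-fold for H2-Ab1, 2.57-fold for H2-Eb1 and 2.41-fold for Cd74, and by 1.76-fold for H2-D1 to 2.29-fold for Tap1 among the class I genes. Individual mice were high or low for most of the list at once. WT 45-3 and WWP2Mut/Mut 24-3 were among the 5 highest mice for 10 of 10 transcripts, and WWP2Mut/Mut 33-1 for 9. WT 16-1 was among the 5 lowest for 10 of 10 and WWP2Mut/Mut 22-3 for 9. Both extremes were thus reached in both genotypes. WWP2Mut/Mut 62-1 was lowest of all mice for H2-Aa, H2-Ab1 and Cd74 but 8th for B2m, and WT 45-1 and WT 25-3 were lowest for Psmb8 and Tap1, respectively.

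**Figure D3:**
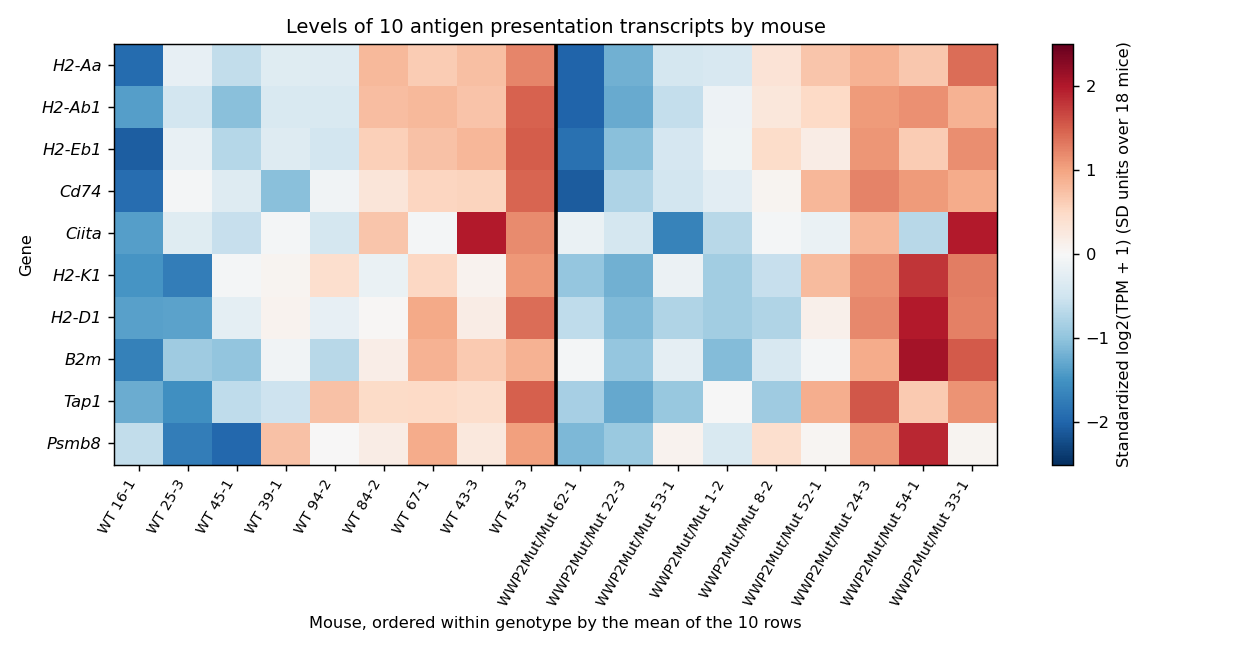
Standardized log2(TPM + 1) of the 10 transcripts (rows; SD units over 18 mice) in each mouse (columns; WT left and WWP2Mut/Mut right of the line, ordered within genotype by the mean of the rows). Columns tend to one colour from top to bottom, with WT 16-1 low and WT 45-3 and WWP2Mut/Mut 24-3 high for all 10.

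The 4 class II transcripts moved together most closely. Over 18 mice, H2-Aa and H2-Eb1 had a Pearson r of 0.979 and a Spearman rho of 0.948 (permutation p = 1e-05 for each, the smallest that 100000 resamples give, 5e-05 after adjustment over 45 pairs), and 0.960 without the 2 mice farthest from the median of H2-Aa. The other 5 class II pairs had r of 0.933 to 0.962. Within WT mice the 6 pairs had r of 0.883 to 0.993, within WWP2Mut/Mut mice 0.948 to 0.978, and after removal of genotype, lane and RNA concentration 0.937 to 0.982, so that the relation held within each. No correlation was computed within a lane of 4 or 5 mice.

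The class I genes were also correlated, with r of 0.664 (Tap1 with Psmb8) to 0.943 (H2-K1 with H2-D1) over 10 pairs, each passing after adjustment (largest adjusted permutation p = 0.00328 for r and 0.0109 for rho). H2-K1 and H2-D1 kept r = 0.933 in WT and 0.955 in WWP2Mut/Mut mice (exact permutation tests, p = 7.77e-04 and 9.92e-05). Tap1 with Psmb8, neighbours on the chromosome, was at 0.552 without the 2 farthest mice and was at 0.595 in WWP2Mut/Mut mice (exact permutation test, p = 0.0931). Across the classes, the 20 pairs had r of 0.584 to 0.808, and all passed (largest adjusted permutation p = 0.0120), H2-Aa with H2-K1 at 0.749 and rho of 0.719. Ciita had r of 0.562 to 0.685 with the class II genes and 0.278 to 0.613 with the class I genes, of which 3 of 5 passed. Its relation to H2-Aa was 0.857 in WT (exact permutation test, p = 0.00343) and 0.529 in WWP2Mut/Mut mice (exact permutation test, p = 0.142), a difference that was not tested. All of these values share a library and its scaling between the genes compared.

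**Figure D4:**
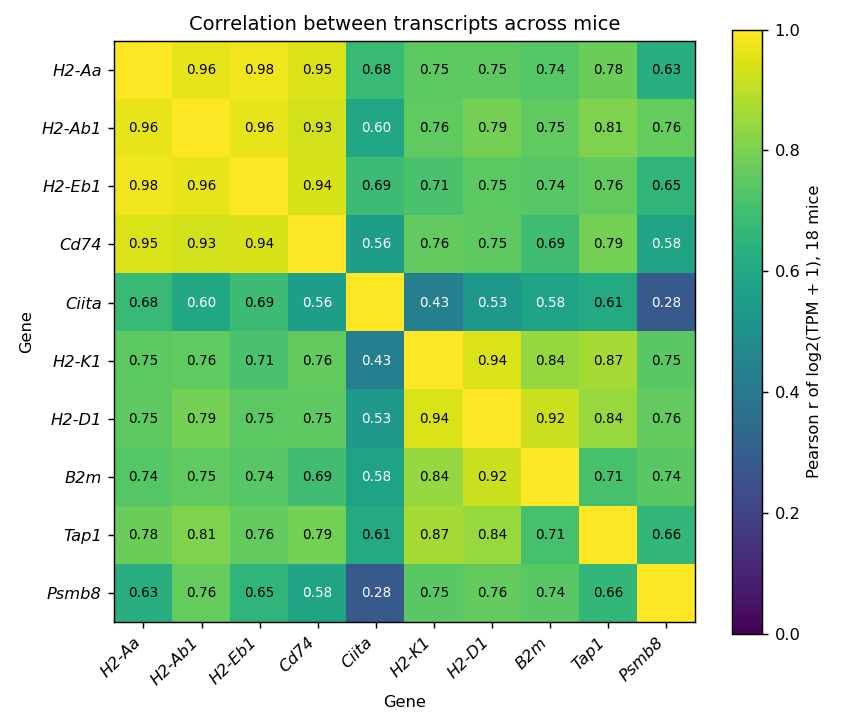
Pearson r of log2(TPM + 1) over 18 mice for the 45 pairs of the 10 transcripts (both axes list the genes; colour scale from 0 to 1, diagonal set to 1). The block of H2-Aa, H2-Ab1, H2-Eb1 and Cd74 is at 0.93 or above, and the lowest value is 0.28 for Ciita with Psmb8.

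Ratios among the MHC chains and Cd74 within a mouse were steadier than their levels, which did not hold for every ratio below. H2-Aa was 1.22 ± 0.0901 times H2-Ab1 (SD, n = 18; range 1.06 to 1.40), H2-Eb1 0.959 ± 0.0675 times and Cd74 2.37 ± 0.231 times. The coefficient of variation was 7.36% for the H2-Aa ratio and 24.5% for H2-Aa itself. H2-K1 was 0.874 ± 0.0757 times H2-D1 and 0.378 ± 0.0465 times B2m. Of the immunoproteasome subunits, Psmb8 was at 0.114 ± 0.0184 of Psmb5, which it replaces, Psmb9 at 0.0412 ± 0.00896 of Psmb6 and Psmb10 at 0.518 ± 0.141 (up to 0.824) of Psmb7. Tap1 was 0.459 ± 0.0958 times Tap2, the other chain of the transporter. The coefficient of variation was 27.2% for Psmb10 over Psmb7, beside 23.1% for Psmb10, and 20.9% for Tap1 over Tap2, beside 13.7% for Tap2. No ratio of the 9 passed the test between genotypes, the nearest being Psmb8 over Psmb5 at 0.107 ± 0.0133 in WT and 0.121 ± 0.0208 in WWP2Mut/Mut mice (a log2 difference of 0.17, two-sided exact permutation test, p = 0.119, adjusted over the 9 ratios 0.900), which without WWP2Mut/Mut 1-2 was 0.21 (p = 0.0436, same exact test).

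The 10 transcripts were set against 15 other measures of the same libraries, and p-values were adjusted over the 150 relations. A relation is said to pass here where the adjusted permutation p of both r and rho was under 0.05. Irf1, an interferon-induced transcription factor of class I genes, had r of 0.826 with H2-D1 and 0.749 with H2-K1 (rho 0.779 and 0.775, adjusted permutation p for r of 0.00600 and 0.00825), and of 0.705 with Tap1 and 0.683 with B2m. With the 4 class II genes Irf1 had r of 0.523 to 0.567 and with Psmb8 0.465, and none of these passed, although rho alone did with H2-Ab1 (0.659) and Cd74 (0.628). After removal of genotype, lane and RNA concentration the class II values were 0.716 to 0.753, within the class I values of 0.581 (Psmb8) to 0.855 (H2-D1). The class II values were 0.303 to 0.451 within WT and 0.627 to 0.690 within WWP2Mut/Mut mice, a difference that was not tested. Nlrc5, the class I coactivator, passed with Tap1 (r = 0.764) and H2-K1 (r = 0.761; rho 0.820 and 0.838, adjusted permutation p of 0.00825 for both r), at 0.713 and 0.760 without the 2 mice farthest from its median. With the other class I genes its r was 0.595 (H2-D1), 0.396 (B2m) and 0.340 (Psmb8) and with the 4 class II genes 0.472 to 0.618, so that the values of the classes overlapped. None of these 7 passed, although rho alone did with H2-D1, H2-Aa and Cd74. The 4 class II values were 0.120 to 0.287 within WT and 0.707 to 0.814 within WWP2Mut/Mut mice, a difference between genotypes that was not tested.

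Of the cell markers, those of natural killer cells, the cells that release interferon gamma together with T cells, had relations that passed for most of the list. Their 4 markers summed to 0.56 to 2.43 TPM, of which Gzma made up most, and had r of 0.606 (Psmb8) to 0.773 (H2-Aa) with the 10 transcripts, 8 of which passed, all but H2-D1 and Psmb8. For H2-Aa the value was 0.826 in WT, 0.752 in WWP2Mut/Mut mice and 0.726 without the 2 farthest mice (rho 0.829, adjusted permutation p = 0.00800 for r). Macrophage markers had r of 0.158 (H2-K1) to 0.501 (Ciita), B cell markers 0.0487 (B2m) to 0.431 (Tap1) and T cell markers 0.262 (Psmb8) to 0.489 (Tap1), and none of these 30 passed, with rho alone doing so for macrophage markers with Psmb8 (0.628, r = 0.474). The genotypes stood apart in the relation to macrophage markers, however. Within WT mice r was 0.595 (H2-K1) to 0.946 (B2m), with H2-Aa at 0.909, H2-Ab1 at 0.920 and H2-Eb1 at 0.909, above the values of the natural killer markers for these genes in WT, and within WWP2Mut/Mut mice it was -0.300 (Tap1) to 0.183 (Psmb8). T cell markers had r of 0.555 to 0.862 within WT and -0.187 to 0.263 within WWP2Mut/Mut mice. The leukocyte marker Ptprc had 0.424 (H2-K1) to 0.840 (Ciita) within WT and -0.248 (Psmb8) to 0.478 (Ciita) within WWP2Mut/Mut mice. Endothelial markers had 0.117 (Psmb8) to 0.826 (H2-Eb1) and -0.424 (H2-Aa) to 0.253 (Ciita), and their pooled r of -0.0668 (Psmb8) to 0.478 (Ciita) passed with no transcript. These within-genotype values, of 9 mice each, are a description, and the difference between the genotypes was not tested. Ciita passed with the leukocyte marker Ptprc (r = 0.644) and with the dendritic cell markers (r = 0.662). Liver markers (r of -0.340 to 0.141), atrial markers (-0.199 to 0.0919) and total counts (-0.258 to 0.0736) passed with none of the 10, nor did gene body coverage, which was at -0.511 with Ciita and -0.168 to 0.237 with the others. These pooled values combined unlike genotypes. Liver markers had r of -0.734 (Ciita) to -0.212 (H2-D1) within WT and 0.0800 (Ciita) to 0.703 (H2-K1) within WWP2Mut/Mut mice, below 0 for all 10 in the former and above 0 for all 10 in the latter. Total counts had 0.0249 to 0.547 within WT and -0.574 to -0.153 within WWP2Mut/Mut mice, and atrial markers -0.234 to 0.402 and -0.619 to -0.0204. Gene body coverage had -0.694 (Ciita) to -0.0134 (H2-K1) within WT, below 0 for all 10, and within WWP2Mut/Mut mice -0.313 for Ciita and 0.0955 to 0.510 for the others. The differences between genotypes in these relations were not tested.

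The wider pathway was described with 63 genes in 8 lists, of which 61 were tested, 46 of them higher and 15 lower in WWP2Mut/Mut mice, and none was called. An unadjusted p under 0.05 was reached by 6, Cd74, H2-K1, B2m, H2-Q6, H2-Q10 and Ifng, against 3.66% of all genes in either direction. The 12 tested class II chains and chaperones were all higher, with a median log2 fold change of 0.33, and 1 of them, Cd74, had an unadjusted p under 0.05. They include the peptide exchange factors H2-DMa (0.24) and H2-DMb1 (0.42). The 5 immunoproteasome genes were all higher, with a median of 0.24 and none under 0.05, and Psmb8 had the smallest p. The 3 standard subunits Psmb5, Psmb6 and Psmb7 were at 0.12, 0.13 and 0.08, with none under 0.05. In peptide loading 4 of 8 genes were higher and the median was -0.00, with the smallest p for the disulfide isomerase Pdia3 (-0.19, unadjusted p = 0.139 in edgeR). Among 9 regulators the median was 0.01, 5 were higher, and Nlrc5 had the smallest p (0.45, SE 0.24, unadjusted p = 0.0818 in edgeR), at 0.24 without covariates and 0.19 with lane alone.

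Among the 13 tested non-classical class I genes and relatives, 10 were higher and the median was 0.23. H2-Q6 was between 5.90 and 15.7 TPM (median 12.1) in WT and between 7.31 and 18.7 TPM (median 12.6) in WWP2Mut/Mut mice, its log2 fold change being 0.66 (SE 0.23, unadjusted p = 0.00967, adjusted p = 0.973, edgeR), and the genotypes overlapped. Without covariates it was at 0.40 (unadjusted p = 0.111, adjusted p = 0.957, edgeR) and with lane alone at 0.37 (unadjusted p = 0.136, adjusted p = 1, edgeR). Of the 100-base stretches in transcripts of H2-Q6, 10.8% also occur in another gene, chiefly H2-Q7, so that its level is uncertain. The same holds for H2-Q10, with 8.01%, chiefly in H2-Q7, and with estimated counts that were not whole in 18 of 18 mice. H2-Q10, a secreted class I chain made in the liver, was between 0.19 and 6.41 TPM (median 1.66) in WT and between 0.11 and 1.33 TPM (median 0.42) in WWP2Mut/Mut mice. It had no WWP2Mut/Mut mouse above the WT median and a log2 fold change of -1.63 (SE 0.48, unadjusted p = 0.00314, adjusted p = 0.865, edgeR). It followed the summed liver markers over 18 mice (r = 0.907, rho = 0.960, permutation p = 1e-05 for each, 3e-05 adjusted over 3 relations, and r = 0.914 without the 2 farthest mice). With the liver markers as a covariate its log2 fold change was -0.30 (unadjusted p = 0.198, adjusted p = 0.687, edgeR), and without WT 45-1, the highest mouse, -1.13 (unadjusted p = 0.0352, adjusted p = 1, edgeR).

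In the interferon gamma axis 4 of 8 genes were higher and 4 lower, with a median of -0.00. Ifng, the cytokine itself, was at 0 in 11 of 18 mice and at 0 to 2 counts in all, too few to give a difference a size. Its receptor chains Ifngr1 and Ifngr2 were at -0.13 and 0.02, Jak1 and Jak2 at -0.04 and -0.02, and Irf1 at 0.18, with unadjusted p of 0.229 or more in edgeR.

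**Figure D5:**
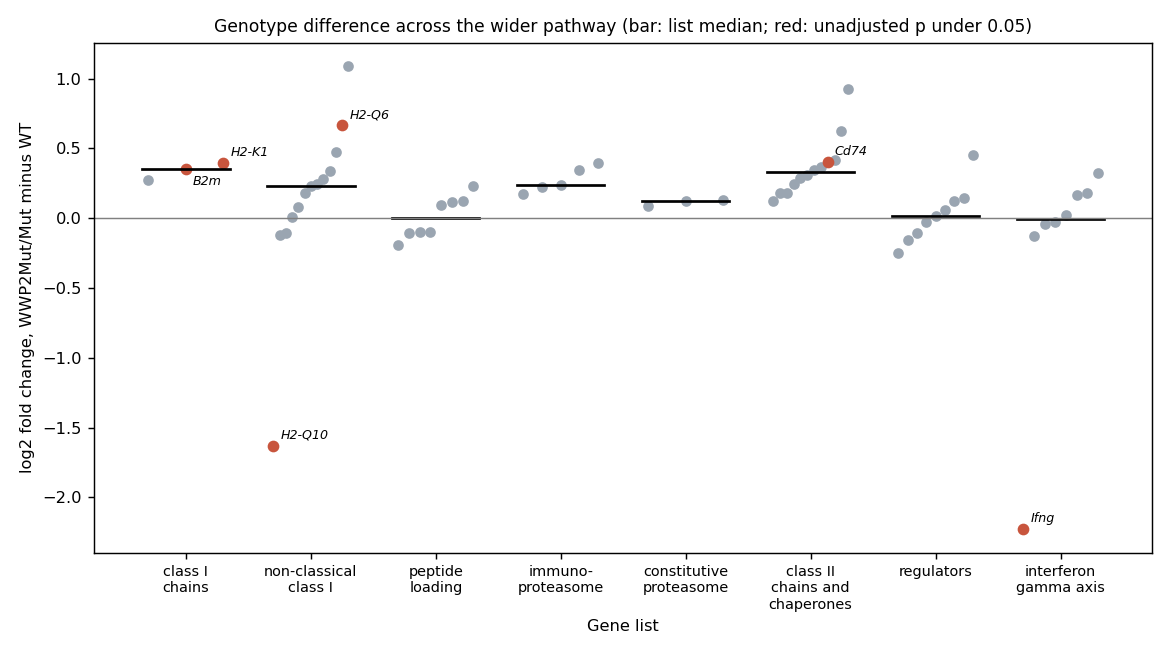
Log2 fold change (vertical axis, WWP2Mut/Mut minus WT, edgeR with RNA concentration and lane) of each tested gene in 8 lists (horizontal axis), with a bar at the median of the list. Red points, labelled, have an unadjusted p under 0.05, H2-Q10 at -1.63 and Ifng at -2.23 being below 0, and no gene shown passed the adjustment over all 24804 genes. The point of Ifng rests on 0 to 2 counts per mouse, too few to give its difference a size.

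Outside these lists, the genes whose levels over the 18 mice were most like the mean standardized level of H2-Aa, H2-Ab1, H2-Eb1 and Cd74, of 11246 genes with a mean of at least 1 TPM, were Tgtp1 (r = 0.787), Tgtp2 (0.764), Ccl5 (0.763), Nudt21 (0.760) and Ifi47 (0.755). The lowest r of the 4 genes with their own mean was 0.972. Those most like the mean of H2-K1, H2-D1, B2m, Tap1 and Psmb8 were Tgtp2 (0.836), Xaf1 (0.804), Gbp3 (0.799), Nmi (0.773) and Tgtp1 (0.761), against a lowest r of 0.852 among the 5 with their own mean. Tgtp1, Tgtp2, Ifi47 and Gbp3 are interferon-inducible GTPases, Xaf1 and Nmi are interferon-induced, and Ccl5 is a chemokine of T cells and natural killer cells. These r were picked as the highest of many and carry no test, and Tgtp1 and Tgtp2 are near-identical copies whose reads could be split between them.

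Where counting could mix genes, the size was measured. Of the 100-base stretches in the annotated transcripts of H2-D1, 3.59% also occur in another gene, chiefly H2-Q1, and of those of H2-K1 0.957%, chiefly H2-Q10, with none for the other 8 genes. The estimated count of H2-D1 was not whole in 18 of 18 mice, that of H2-K1 in 10 and that of Tap1 in 2. B2m lies wholly within the span of Patl2 on the opposite strand, Ciita overlaps Dexi over 25888 bases, and Psmb8, H2-Eb1 and Tap1 overlap antisense genes or Psmb9 over 2139, 2204 and 212 bases. The library kit kept the strand, but whether counting used it is not given in the sources used here, and without it these reads cannot be told apart.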

How the data were processed

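Poly(A)-selected RNA of the left ventricle was sequenced from 18 mice, grouped by the genotype in their labels. The authors aligned reads to mouse m38 (Ensembl 89) with STAR 2.5.2b, quantified genes with RSEM 1.2.31 and removed rRNA and mitochondrial genes. The authors deposited RSEM's expected counts, of which 5.11% were not whole. TPM, scaled per mouse by the authors, summed to 671770 to 826381 in the deposited table. The gene body coverage fraction, RNA concentration and lane came from the deposited sample table. Symbols were matched for 51242 of 51435 identifiers.

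Counts, 24566994 to 37451087 per mouse, were rounded and tested with edgeR 4.0.16 (TMM, quasi-likelihood F test) where a gene's total exceeded 1 count. Covariates, following the study's methods, were lane and the centred concentration of RNA, with Benjamini-Hochberg adjustment at an FDR of 0.05. The model was tested on simulated data. DESeq2 1.42.0 and limma 3.58.1 were alternatives, as were other factors, filters, covariates and left-out libraries. For single values a two-sided exact permutation test enumerated 48620 divisions, and correlations with 100000 permutations (all orders within a genotype). P-values cover the spread between mice, and reads without molecular identifiers are not independent molecules, so that counts give no more than counting precision.

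The 10 genes and the lists were chosen with earlier results of these data known. Other genes were named if their unadjusted p was under 0.05, if it was the smallest of their list, as ratio partners, as the 5 genes most like each class, or as markers of cells that stood apart. H2-DMa, H2-DMb1, the interferon gamma genes besides Ifng, and the regulators Irf1 and Nlrc5 in the correlations were named outside this rule, after their values were seen. Promoter sequences are from RefSeq (GRCm38.p6). The relations of 1 of the 15 library measures are not reported here.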

Additional observations from a re-analysis of the deposited data

How the results depend on the processing

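No paired analysis was possible because WT and WWP2Mut/Mut mice share no replicate numbers. The number of genes called, 1, became 2 with liver markers as a covariate and 0 without the 5 atrial libraries, and was 1 to 2 when each mouse was left out. The number of the 10 transcripts with an unadjusted p under 0.05, 3, became 0 without covariates, with lane alone, without WT 45-1 and in limma with either pseudocount, 1 with gene body coverage added, 4 without the 5 atrial libraries and 8 with liver markers added, and was 0 to 8 when each mouse was left out, while the share of all genes passing in that direction, 1.09%, reached 3.52% with liver markers. The number higher in WWP2Mut/Mut mice was 9 to 10 throughout. Ciita turned to -0.0025 in limma on log2(TPM + 1) and to -0.031 on log2(TPM + 0.1), and ranged from -0.10 to 0.35 when each mouse was left out. The other log2 fold changes kept their direction in all 30 settings. On TPM rescaled to one common sum H2-Aa turned to 0.023 and H2-Ab1 to 0.0166, and on TMM-normalized CPM H2-Aa turned to 0.12, H2-Ab1 to 0.13 and Ciita to 0.0077. With each mouse left out, the TPM differences ranged from -0.0391 to 0.138 for Cd74, -0.0951 to 0.0887 for H2-Aa, -0.0765 to 0.0827 for H2-Ab1, -0.0338 to 0.0686 for H2-D1, -0.0869 to 0.0966 for H2-Eb1 and -0.0411 to 0.0793 for Tap1, the smallest exact permutation p for any of the 10 transcripts being 0.257, and the ratio differences from -0.0187 to 0.0293 for H2-Aa/H2-Ab1, -0.0107 to 0.0465 for H2-Eb1/H2-Ab1, -0.0619 to 0.0191 for H2-K1/B2m, -0.0568 to 0.0993 for Psmb10/Psmb7 and -0.0419 to 0.0897 for Tap1/Tap2. The 8 correlations tried stayed positive in all 184 repeats, and 3 lost a p under 0.05, each within 1 genotype. These are H2-Aa with Ciita at 0.529 and Tap1 with Psmb8 at 0.595 in WWP2Mut/Mut mice, and H2-Aa with H2-K1 at 0.659 in WT (exact permutation tests, p = 0.142, 0.0931 and 0.0603). The cause of these changes was not tested. The 17 to 72 counts of Ciita limit what can be said of it.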

Other observations

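Rfxap, a subunit of the RFX complex that binds the X box, was chosen after its values were seen. Its TPM was between 9.61 and 11.8 (median 10.8) in WT and between 8.16 and 10.6 (median 8.79) in WWP2Mut/Mut mice, a difference in log2(TPM + 1) of -0.25 (two-sided exact permutation test, p = 4.52e-04) with no WWP2Mut/Mut mouse above the WT median. On TMM-normalized CPM, between 9.37 and 12.9 in WT and between 9.39 and 12.3 in WWP2Mut/Mut mice, the difference was -0.01 (same exact test, p = 0.884), and its log2 fold change in edgeR was 0.01 (SE 0.10, unadjusted p = 0.884). In limma on log2(TPM + 1) over all genes it was at -0.25 with an adjusted p of 0.807, and on counts without scaling the difference was -0.14 (two-sided exact permutation test, p = 0.148). Since the gene was chosen after its values were seen, these p-values carry no test of it, and the cause of the difference between scales was not tested.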
